A study of Mus musculus with 6 samples.

Results

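OG2 ES cells, the mouse embryonic stem cells that served as the pluripotent reference of this study, were compared directly with FAH−/− mouse embryonic fibroblasts (MEFs), the somatic cells from which its induced pluripotent stem (iPS) cells were made. Both populations were profiled on 1 Illumina mouse-8 V2 BeadChip each, out of 6 arrays in the series, and the other 4 arrays, of iPS cell lines, entered only the normalization and a scale of the difference between cultures. Of 16593 genes on the array, 9667 were above background in the MEFs, the ES cells or both and were compared. The ES cells are 1 line that carries an Oct4-GFP reporter and were kept under standard conditions for mouse ES cells. The MEFs were fetal fibroblasts of C57BL/6 mice that lack FAH, the last enzyme of tyrosine breakdown, and came from female and male mid-gestation fetuses mixed. The genotype of the ES cells at Fah and the number of animals behind the MEFs are not given in the labels. Fah genotype, sex, culture medium and strain are not given for both cultures in the labels. Any difference in these cannot be told apart from cell type. With 1 array a group there was no replicate check, so that sizes are given with no test. Each value below is the normalized log2 intensity of a gene's probe, on which 1 unit is 2-fold, and a difference is the value in ES cells minus that in MEFs.

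ES cells stem from the inner cell mass of the blastocyst. Oct4 (encoded by Pou5f1), Sox2 and Nanog hold them in a state in which they renew themselves and can form every lineage of the embryo, they grow as compact epithelial colonies, and they pass quickly from one round of DNA synthesis to the next. Fibroblasts are the mesenchymal cells of connective tissue. They secrete collagen and other matrix, pull on it with actin stress fibres, keep a positional code of Hox genes from the embryo and respond to interferon and inflammatory signals.

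The ES cell array differed from the MEF array over 29.7% of the measured genes, to nearly the same extent in both directions. Of the 9667 genes, 1407 were at least 2-fold higher in ES cells, which is 14.6%, and 1467 were at least 2-fold lower, which is 15.2%, whereas 6793 (70.3%) lay within 2-fold. At 4-fold the numbers were 348 and 502, at 8-fold 106 and 204, and at 16-fold 47 and 92, so that the lower side held more genes at each of these limits. At 32-fold the balance was the other way, with 25 genes higher and 18 lower in ES cells. On both arrays 7184 genes were above background, 1004 only in ES cells and 1479 only in MEFs. For 52 of the higher and 66 of the lower genes the dim side lay so near the background that a 2-fold difference was not settled over it. The share of the higher side depends on the scaling: with each array scaled to its median instead of quantile normalized, 867 genes were higher and 2111 lower, and the median of all genes compared moved from 0.02 to -0.21. Over all 25697 probes the arrays correlated with a Pearson's r of 0.819 on the exported signals, with no p, since probes are not replicates.

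**Figure D1:**
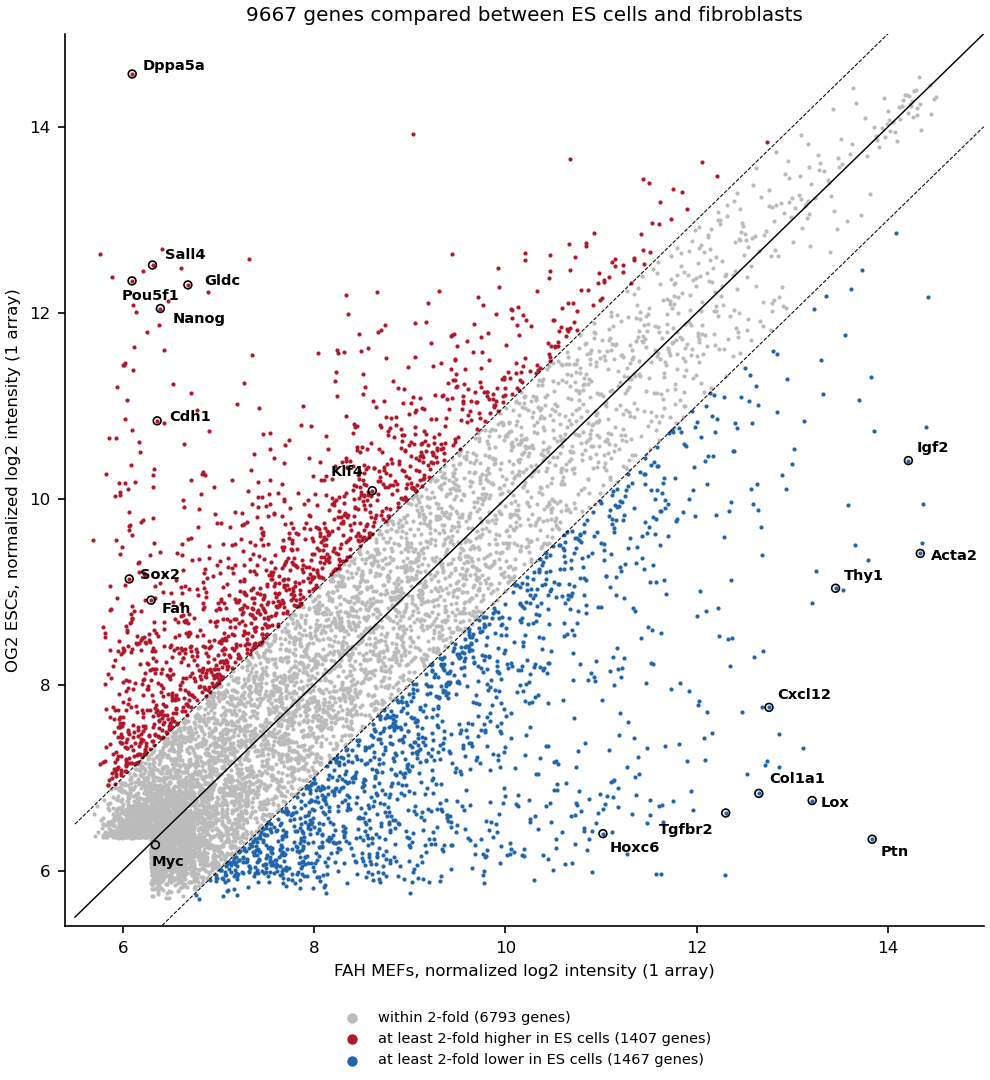
Normalized log2 intensity of the 9667 genes in FAH MEFs (x axis) and OG2 ESCs (y axis), 1 array each, with the line of equality and dashed lines at 2-fold. Red points are the 1407 genes at least 2-fold higher in ES cells and blue points the 1467 at least 2-fold lower; Dppa5a stands at 6.10 and 14.57, and Ptn at 13.83 and 6.34.

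Neither culture was arrayed again, and the 4 iPS cell arrays give the only scale for the difference between 2 cultures. Pairs of them, processed alike, had between 0.011% and 0.447% of genes at least 2-fold apart, against 29.7% for ES cells and MEFs. Lines 7.1 and 7.2 are gene-corrected derivatives of line 7, and the 3 pairs among these lay between 0.011% and 0.11%, while the 3 pairs with line 4, the only separate line, lay between 0.436% and 0.447%. Of the 2874 genes apart, 2867 differed by more than their own range over the 4 iPS cell arrays. This count follows largely from the 2-fold limit by which these genes were picked, and is no check of them. Over all genes compared, the median range of the 4 arrays was 0.28 and the median size of the difference between ES cells and MEFs 0.57. Probes of the same gene are the other repeat measurement. Of 2538 genes with several probes above background, 82.6% had all of them on the same side of 0, and of 924 whose representative probe was at least 2-fold apart, 387 (41.9%) had every probe at least 2-fold apart the same way. In 3 genes, Irgm1, Ifngr2 and Me1, probes were at least 2-fold apart in opposite directions; Ifngr2, a chain of the interferon gamma receptor, is named for that alone, after its values were seen. Of the genes apart, 957 higher and 993 lower ones rest on a single probe above background.

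**Figure D2:**
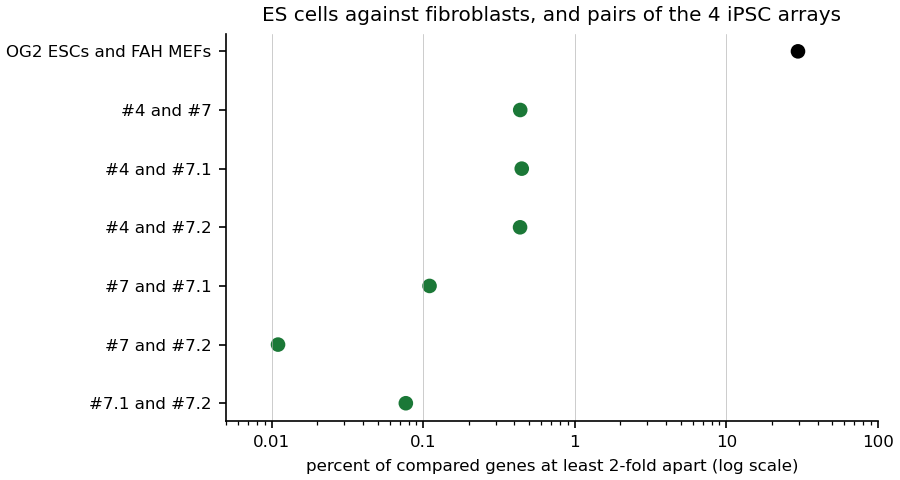
Percent of compared genes at least 2-fold apart (x axis, log scale) between OG2 ESCs and FAH MEFs (black) and between each pair of the 4 iPS cell arrays (green, named by line). The first pair stands at 29.7%, and the 6 iPS cell pairs lie between 0.011% and 0.447%.

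Both arrays carried the markers of their labels. Of 13 ES cell markers compared, 12 were at least 2-fold higher in ES cells and all 13 were above background there, against 3 in MEFs. Of 16 fibroblast markers compared, 15 were at least 2-fold lower in ES cells. The exception was Postn (6.61 in MEFs and 5.91 in ES cells), which encodes the matrix protein periostin. Of the fibroblast markers, 13 remained above background on the ES cell array. The exported signals of all 16, with no background subtracted, summed to 2676 in ES cells against 81200.1 in MEFs. The background of a single probe was 89.2 on the ES cell array and 109 on the MEF array. Col1a2, Pdgfrb and Postn were not above background in ES cells. ES cells are often grown on fibroblast feeders, whose part in these values was not tested, and in such cultures fewer cells of a type and less RNA per cell cannot be told apart. Blood and macrophage markers were above background in MEFs for 11 of the 14 on the array, against 2 in ES cells. Their exported signals, summed over the 14 with background included, were 9707 in MEFs against 1341 in ES cells. The sum in ES cells is thus largely background. Lyz1 and Lyz2, which encode the lysozymes of gut and of myeloid cells and are close in sequence, stood at 12.16 and 10.47 in MEFs and at 7.48 and 6.72 in ES cells. Fcer1g, the signalling chain of Fc receptors, was 7.99 in MEFs and C1qb, of complement, 7.68, and neither was above background in ES cells. The part of macrophages in the MEF culture in what follows was not tested. Eif2s3y, on the Y chromosome, was 9.20 in MEFs and not above background in ES cells, and Xist, the RNA that coats the inactive X chromosome, was 7.32 in MEFs and also not above background in ES cells.

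The genes were grouped into 50 lists by function. The highest shares of members at least 2-fold higher in ES cells were found for pluripotency-associated genes (27 of 29), ribosome biogenesis (27 of 36), DNA replication (34 of 46), naive pluripotency factors (17 of 24), mitosis (26 of 37) and the nuclear pore (18 of 27), against 14.6% of all genes. The highest shares of lower members were found for collagen folding and crosslinking (15 of 19), matrix glycoproteins (29 of 40), caveolae (11 of 17), mesenchymal transcription factors (23 of 38) and matrix proteases (16 of 27), against 15.2% of all genes. Ribosomal proteins, by contrast, hardly differed, with 1 of 52 higher and 1 lower.

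**Figure D3:**
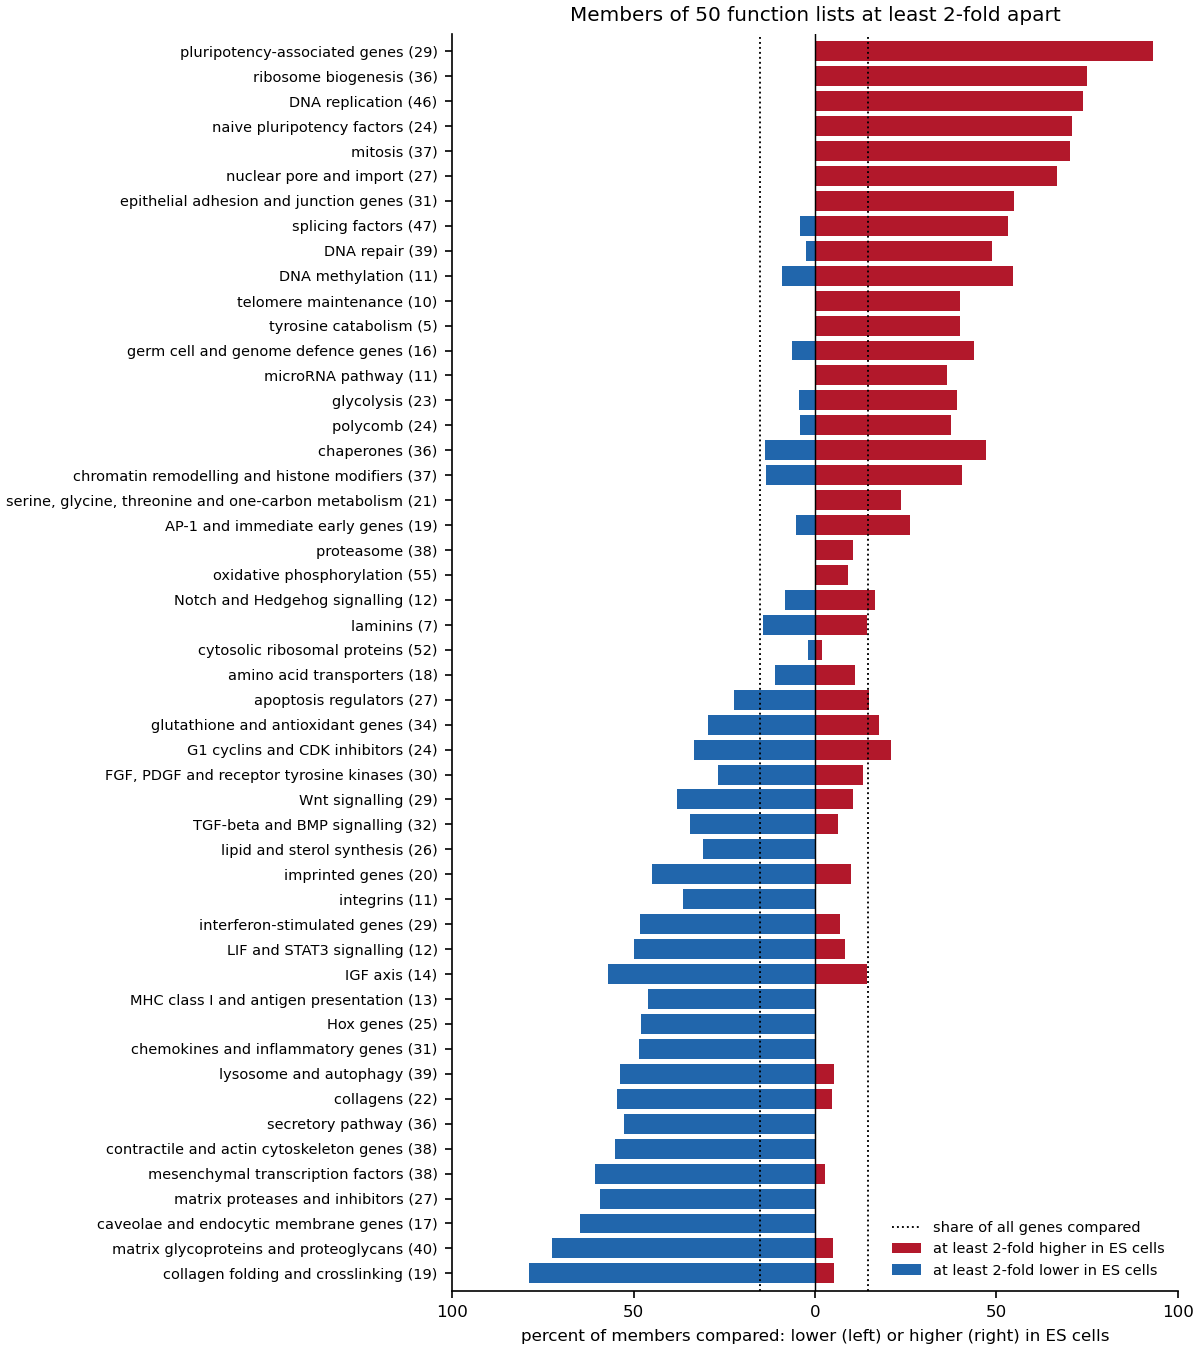
Percent of the compared members of each of 50 function lists that were at least 2-fold higher (red, right) or lower (blue, left) in OG2 ESCs than in FAH MEFs, with the number compared in brackets. Dotted lines mark the shares of all genes compared, 14.6% and 15.2%; pluripotency-associated genes reach 27 of 29 on the right and collagen folding and crosslinking 15 of 19 on the left.

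Pou5f1, Nanog and Sox2, the transcription factors that define pluripotency, were near or below background in MEFs and well above it in ES cells. Pou5f1 was not above background in MEFs (exported signal 112 over a background of 109) and reached a log2 intensity of 12.34 in ES cells, at least 66.0-fold higher. Nanog stood at 6.39 in MEFs, just above background, and at 12.04 in ES cells, 50.3-fold higher. Sox2, the partner of Oct4 on DNA, was not above background in MEFs and 9.14 in ES cells, at least 7.16-fold higher. The remaining factors that are used to reprogram fibroblasts were Klf4, with a smaller difference, and Myc, too near the background for a difference to be read. Klf4, a zinc finger factor, was already well above background in MEFs, at 8.61, and was 10.09 in ES cells (2.78-fold). Myc, which drives growth and division, differed by -0.06 (6.34 and 6.28) and was barely above background in MEFs and not above it in ES cells. Fah itself was not above background in the FAH−/− MEFs (6.30) and was 8.91 in ES cells, at least 6.11-fold higher; whether the probe reads a stretch that the knockout allele lost is not known, so that its level does not check the label.

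The promoter of Nanog carries a composite element to which Oct4 and Sox2 bind side by side. The letters TTTGCATNACAANG, searched on both strands in the 250 bases before the start of transcription, occur in 2 of 27025 genes with a promoter in the RefSeq table of GRCm38.p6, or 0.0074%, and among the genes compared in Nanog alone. Below is the stretch from 100 to 41 bases before 1 of the 2 starts of Nanog, on the plus strand at chr6:122707389-122707448, shown for this element, which stands in capitals 75 to 62 bases before the start. A match is a description of the letters and does not show binding.
Nanog: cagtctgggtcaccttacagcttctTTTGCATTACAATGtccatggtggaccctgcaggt

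Other factors of naive pluripotency, the ground state of mouse ES cells, stood on the same side. Of 24 compared, 17 were at least 2-fold higher in ES cells and none lower, with a median difference of 1.58 against 0.02 over all genes compared. Esrrb, an orphan nuclear receptor, was not above background in MEFs and 12.39 in ES cells, at least 68.2-fold higher. Sall4, a zinc finger factor that binds with Oct4, was 6.31 and 12.51, and Utf1, a chromatin-bound factor of undifferentiated cells, was at least 30.0-fold higher. Zscan10, a zinc finger protein, was at least 10.6-fold higher. Klf5 and Klf2, which share targets with Klf4, were already expressed in MEFs at 8.04 and 7.88 and stood at 11.57 and 10.99 in ES cells.

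Genes that mark pluripotent cells without being core regulators included the largest difference of the comparison. Of 29 compared, 27 were at least 2-fold higher, with a median of 4.21. ES cells had 29 of the 30 on the array above background, against 9 in MEFs. Dppa5a, an RNA-binding protein of the early embryo, was 6.10 in MEFs and 14.57 in ES cells, at least 309-fold higher and the largest difference among all genes compared. Dppa4, a chromatin protein, was at least 80.9-fold higher, and Trh, the precursor of thyrotropin-releasing hormone, at least 55.3-fold. Ooep, of the maternal complex of the egg, was 6.41 and 12.69. L1td1, an RNA-binding protein derived from a transposon, was at least 45.0-fold higher and Fbxo15, an F-box protein long used as a reporter locus, at least 40.3-fold. Tex19.1, Lefty2 and Dppa3, which restrain retrotransposons, Nodal signals and demethylation, were at least 27.3-, 20.5- and 20.5-fold higher.

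Many markers of neighbouring embryonic states were above background on neither array and were not compared. On the array, 8 of 14 for the primed epiblast and primitive streak were above background in ES cells, against 2 in MEFs. For trophoblast it was 4 of 9 against 1, and for endoderm 9 of 17 against 7. Among those compared, 25%, 50% and 10% were at least 2-fold higher, against 14.6% of all genes, on small numbers. None of the primed or trophoblast markers was at least 2-fold lower. Of the 8 primed and streak markers, 2 were at least 2-fold higher, namely Otx2 (9.07 in ES cells, at least 6.9-fold) and Pou3f1 (8.26, at least 3.9-fold), and Fgf5 (6.48 and 7.01), the usual marker of the primed state, was within 2-fold. Of 4 trophoblast markers, Tfap2c was at least 35.7-fold higher and Plet1, at 6.92 in ES cells, at least 1.5-fold; Tfap2c is also a factor of germ cells and naive cells. Of 10 endoderm markers, 5 were lower and Lama1, which encodes a laminin chain, was at least 2.8-fold higher.

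**Figure D4:**
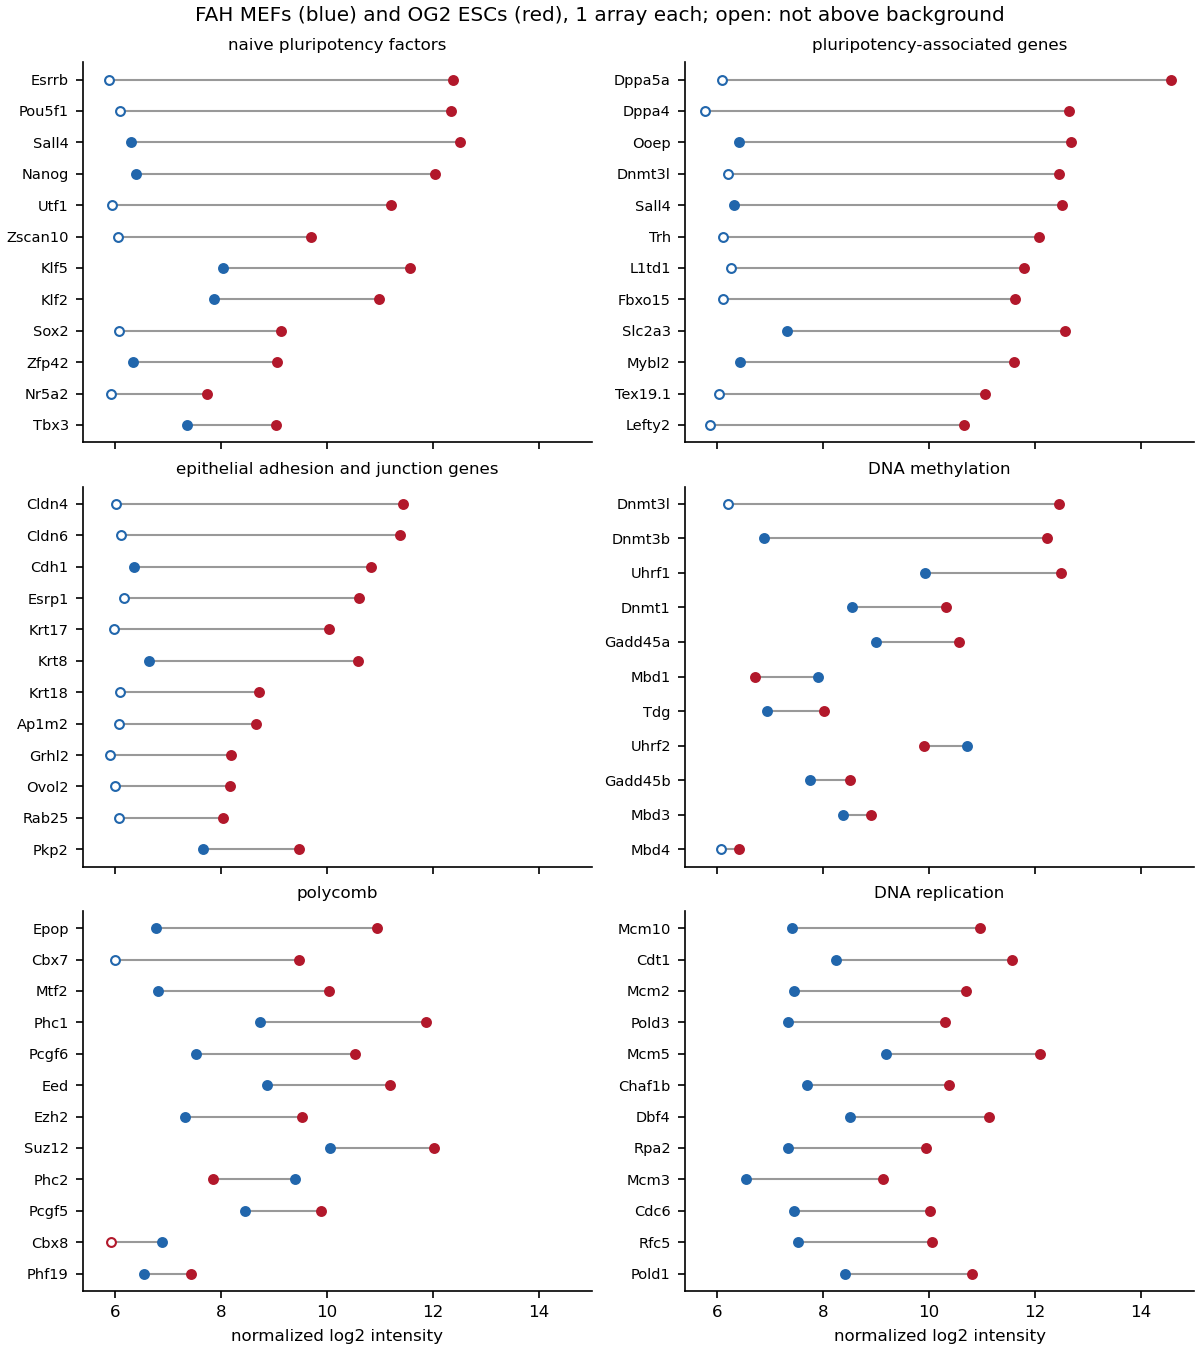
Normalized log2 intensity (x axis) in FAH MEFs (blue) and OG2 ESCs (red), 1 array each, for the up to 12 members with the largest differences in 6 lists, with open circles for values not above background. Nanog stands at 6.39 and 12.04, Dnmt3b at 6.89 and 12.22 and Mcm10 at 7.42 and 10.97.

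Among the listed epithelial genes none was at least 2-fold lower in ES cells. Of 31 adhesion and junction genes compared, 17 were at least 2-fold higher and none lower, with a median of 1.35. ES cells had 31 of the 38 on the array above background, against 10 in MEFs. Cdh1, which encodes E-cadherin, the adhesion protein that holds ES cell colonies together, was 6.36 in MEFs and 10.84 in ES cells, 22.3-fold higher. The tight junction claudins Cldn4 and Cldn6 were at least 35.4- and 33.8-fold higher. Of all 11 Cldn genes compared, 3 were at least 2-fold higher and 2, outside this list, at least 2-fold lower. Esrp1, which directs epithelial splicing, was at least 19.9-fold higher, and the keratins Krt8, Krt17 and Krt18 stood at 10.59, 10.04 and 8.72 in ES cells against 6.64, 5.97 and 6.10 in MEFs. The clathrin adaptor subunit Ap1m2 was at least 5.2-fold higher.

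Among genes of DNA methylation and of the polycomb complexes, which silence developmental genes, more were higher than lower in ES cells. Of 11 DNA methylation genes, 6 were higher and 1 lower. Dnmt3l, the cofactor without enzyme activity of its own, was at least 71.2-fold higher, and the de novo methyltransferase Dnmt3b was 6.89 in MEFs and 12.22 in ES cells, 40.5-fold higher. Uhrf1 and Dnmt1, which copy methylation after replication, differed by 2.56 and 1.77. The other 2 that were higher, Gadd45a (8.99 and 10.57) and Tdg (6.94 and 8.02), are linked to the removal of methylation. The methyl-CpG-binding protein Mbd1 was the lower one, at 7.91 and 6.71. Of 24 polycomb genes, 9 were higher, 1 lower and 14 within 2-fold. Of the core of the PRC2 complex, Eed (8.87 and 11.19), Ezh2 (7.33 and 9.53) and Suz12 (10.07 and 12.03) were all at least 2-fold higher, and the accessory subunits Epop and Mtf2 differed by 4.18 and 3.23. Of the PRC1 complex, Cbx7 was at least 9.0-fold higher and Phc1 (8.74 and 11.87) and Pcgf6 (7.54 and 10.53) were higher, while Phc2 was lower (9.40 and 7.85). The differences thus ran against each other within the Phc genes.

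Among other chromatin genes, more were higher than lower. Of 37 remodellers and histone modifiers, 15 were higher (40.5%) and 5 lower (13.5%), against 14.6% and 15.2% of all genes. The lower share was thus near that of all genes. Wdr5, of the complexes that methylate H3K4, differed by 3.16, Hmgb2 by 3.11, and Trim28, the corepressor of retroelements, by 2.07 (10.66 and 12.74). Smarca2, the BRM ATPase of the BAF complex, was the largest of the lower ones, at 11.04 in MEFs and 6.72 in ES cells, and the deacetylase Hdac7 was at least 3.2-fold lower. Of 16 genes of germ cells and genome defence, 7 were higher and 1 lower. Rhox5, an X-linked homeobox gene, was 6.38 and 11.87, Rhox9 and Rhox6 were at least 13.7- and 4.8-fold higher, and Tdrd12, of the piRNA pathway, at least 11.1-fold, while Tdrd7 was lower (8.88 and 6.50). On the iPS cell arrays Rhox9 lay between 7.26 and 7.90 and Rhox6 between 6.35 and 6.90, both nearer to the MEFs. Rhox5 lay between 10.47 and 11.24 on them, nearer to the ES cells.

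Among imprinted genes, which are expressed from 1 parental copy, more were lower than higher in ES cells. Of 20 compared, 9 were lower, 2 higher and 9 within 2-fold. Dlk1 (11.48 and 6.51), Ndn (12.10 and 7.71), the cell cycle inhibitor Cdkn1c (12.32 and 8.49), the fetal growth factor Igf2 (14.21 and 10.41), Gnas and Grb10 were lower by 2.62 to 4.97. The members against this direction were Phlda2, a growth-restraining gene of the placenta that was not above background in MEFs and at least 35.2-fold higher in ES cells, and Snrpn, a splicing protein gene, at 9.71 and 12.17.

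Genes of the cell cycle were higher in ES cells, and most of all those of DNA synthesis. Of 46 replication genes compared, 34 were at least 2-fold higher and none lower, with a median of 1.80. ES cells had 46 of the 49 on the array above background, against 43 in MEFs. Mcm10 (7.42 and 10.97), Mcm2 (7.46 and 10.69) and Mcm5 (9.20 and 12.11), of the replicative helicase and its loading, differed by 2.91 to 3.55. Cdt1, which loads the helicase, differed by 3.32, Pold3, a subunit of polymerase delta, by 2.97, Chaf1b, which deposits histones behind the fork, by 2.69, and Rpa2, of the single-strand binding complex, by 2.60. Of 37 mitotic genes, 26 were higher and none lower, with a median of 1.34. The kinase Plk1 stood apart at 6.43 and 10.82, 21.0-fold higher, whereas Incenp, Aurka, Top2a, Cenpa and Espl1 lay between 1.97 and 2.25. On the iPS cell arrays, however, Plk1 lay between 7.37 and 7.63, nearer to its value in MEFs than to that in ES cells. Of 39 repair genes, 19 were higher, 1 lower and 19 within 2-fold. Ung, which removes uracil from DNA, was 7.35 and 11.55, and Msh6 (mismatch repair), Parp1 (strand breaks) and Blm (a helicase of recombination) differed by 3.19, 2.93 and 2.88.

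The genes that gate entry into DNA synthesis divided into both directions. Of 24 cyclins, kinases and inhibitors of this step, 5 were higher and 8 lower. Ccne1, the cyclin E of this transition, was 7.14 and 10.20, and Mybl2, a transcription factor of dividing cells, 6.43 and 11.60, 36.1-fold higher. The inhibitors ran the other way: Cdkn2b was 11.34 and 7.43, Cdkn2a 9.24 and 6.84, Cdkn1c 12.32 and 8.49 and Cdkn1a 12.17 and 10.46. Ccnd2, a cyclin D that responds to growth factors, was 10.73 and 6.59. E2f4 was higher, at 7.02 and 9.20.

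Promoters of the mitotic genes are known for the cell cycle homology region and for CCAAT boxes, which recruit cell cycle repressors and NF-Y. Of 31 mitotic genes with a promoter in the table, 12 (38.7%) held TTTGAA, on either strand within 250 bases before the start, against 12.9% of the 7816 compared genes with a promoter and 18.3% of all 27025. CCAAT, searched likewise, was found in 21 of the 31 (67.7%), against 41.4% and 37.5%. The example is Cdc20 (9.75 in MEFs and 11.58 in ES cells), the activator of the anaphase-promoting complex, chosen for its matches after its values were seen. The 60 bases before its start lie on the minus strand at chr4:118437344-118437403, with TTTGAA in capitals 18 to 13 bases before the start.
Cdc20: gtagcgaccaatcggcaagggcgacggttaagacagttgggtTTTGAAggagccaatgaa

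Making ribosomes and moving molecules into and out of the nucleus also set ES cells apart, whereas ribosomal protein genes hardly differed. Of 36 genes of ribosome biogenesis, 27 were higher and none lower, with a median of 1.61. Heatr1 (8.75 and 11.51), Rrp12 (8.14 and 10.54), the helicase Ddx21 (8.98 and 11.42) and the box C/D protein Nop58 (9.25 and 11.43) differed by 2.18 to 2.76. Of 52 ribosomal protein genes, 50 were within 2-fold, with a median of 0.06, and the 2 exceptions were Rpl4 (10.33 and 11.43) and Rpl27a (11.16 and 9.90). Of 27 genes of the nuclear pore and import, 18 were higher and none lower. Nup210, a membrane nucleoporin, stood apart at 6.32 and 10.32, 15.9-fold higher, and Nup43, Nup160 and the importin Ipo5 differed by 2.30, 2.30 and 2.05.

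Splicing factors were mostly higher. Of 47 compared, 25 were higher and 2 lower. Among those higher, Srsf6 differed by 2.13, Sf3b3 by 2.07 and the tissue-restricted Rbm47 and Rbpms by 2.89 and 2.43. The lower ones were both members of the muscleblind family, Mbnl1 (10.53 and 6.93) and Mbnl2 (11.43 and 9.36), which are known as repressors of the ES cell splicing pattern. Of 36 chaperone genes, 17 were higher and 5 lower. Hsp90aa1, its cochaperones Fkbp5 and Fkbp4, and the small heat shock protein Hspb1 were higher by 1.87 to 2.34, while Cryab, of the same small heat shock family, and the cochaperone Bag3 were lower by 2.04 and 1.77. Of 38 proteasome genes, 4 were higher and none lower, with a median of 0.40, but with each array scaled to its median 1 was higher and 3 lower. The share of 10.5% higher was below the 14.6% of all genes. Psmd8 was the largest, at 8.22 and 11.27, but on the iPS cell arrays it lay between 8.65 and 8.80, nearer to the MEFs.

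Metabolic lists differed in how many members were apart. Of 23 glycolytic genes, 9 were higher and 1 lower. The glucose transporters Slc2a3 (7.32 and 12.58, 38.2-fold higher) and Slc2a1 (9.59 and 11.70), the hexokinase Hk2 (8.47 and 11.78) and the kinase Pdk1 (7.17 and 9.86), which keeps pyruvate from the mitochondria, were among them, and the lower one was Eno2, a neuronal enolase (8.05 and 6.45). Of 55 genes of oxidative phosphorylation, 50 lay within 2-fold, 5 were higher and none lower, but 2 higher and 4 lower with each array scaled to its median. The 5 are 9.09% of the list, below the 14.6% of all genes. The 5 included 2 isoforms of restricted tissues, Cox7a1 (6.61 and 8.74) and Cox6b2 (7.46 and 9.50). Of 21 genes of serine, glycine and one-carbon metabolism, 5 were higher, the methyltransferase Dnmt1 among them, and none lower. Gldc, which cleaves glycine, was 6.68 and 12.30, 49.1-fold higher, and Mthfd1 and Shmt1, of the folate cycle, differed by 2.89 and 1.82. Of 26 genes of lipid and sterol synthesis, none was higher and 8 were lower, among them the desaturases Fads1 (12.84 and 10.94) and Scd1 (11.38 and 9.48), Hsd17b7 and Elovl1. Me1, which supplies NADPH, was lower by 2.39 on its representative probe, but its other probe was 1.13 higher.

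Among genes of the antioxidant system, the lower share was above that of all genes and the higher share near it. Of 34 compared, 10 were lower (29.4%) and 6 higher (17.6%), against 15.2% and 14.6% of all genes. Mgst1 (10.83 and 6.43), a membrane glutathione transferase, and Gpx8 (12.01 and 7.78), a peroxidase of the endoplasmic reticulum, were lower by more than 4 units, and Gsta4 (8.12 and 10.67) and Gclm (8.42 and 10.77), of glutathione synthesis, were higher. Of 18 amino acid transporters, 2 were higher and 2 lower, 11.1% each, which is no more than among all genes. The arginine transporter Slc7a3 had the largest difference of the list, at 8.35 and 11.98.

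Among the lists of the fibroblast side, those of the extracellular matrix held many large differences. Of 22 collagens, 12 were at least 2-fold lower in ES cells and 1 higher. Col1a2 was 12.29 in MEFs and not above background in ES cells, at least 61.3-fold lower. Col1a1, which forms type I collagen with it, was 12.65 and 6.83, 56.4-fold lower, and Col3a1 11.65 and 6.52, 34.8-fold lower. The fibril-regulating Col5a1 (13.11 and 7.32), the beaded filament chain Col6a1 (12.71 and 7.14) and the basement membrane chains Col4a1 and Col4a2 (lower by 3.74 and 4.16) were of the same kind. The only collagen on the other side was Col18a1, a collagen of epithelial basement membranes, at 10.36 and 11.40, close to the 2-fold limit.

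The proteins that fold, process and crosslink collagen lay on the same side. Of 19 compared, 15 were lower and 1, Pcolce2 (6.91 and 8.17), was higher. The crosslinking enzyme Lox was 13.21 in MEFs and 6.75 in ES cells, 87.6-fold lower, the largest difference among genes above background on both arrays, and Loxl1 was 12.86 and 7.47. Serpinh1, the collagen chaperone, was 11.51 and 6.59, and Bmp1, the procollagen proteinase, 10.64 and 6.94. Of 40 matrix glycoproteins and proteoglycans, 29 were lower and 2, Ltbp4 and Nid2, higher. Fbln2 (12.86 and 7.11), the leucine-rich proteoglycans Bgn (14.35 and 9.52) and Lum (11.32 and 6.61), the microfibril proteins Mfap2 (11.64 and 6.70) and Mfap4 (at least 17.7-fold lower), and Thbs2 (12.08 and 7.43) were all lower. Ogn was at least 37.3-fold lower. Of 7 laminins, by contrast, 1 was lower, Lamb2, and 1 higher, Lama1.

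**Figure D5:**
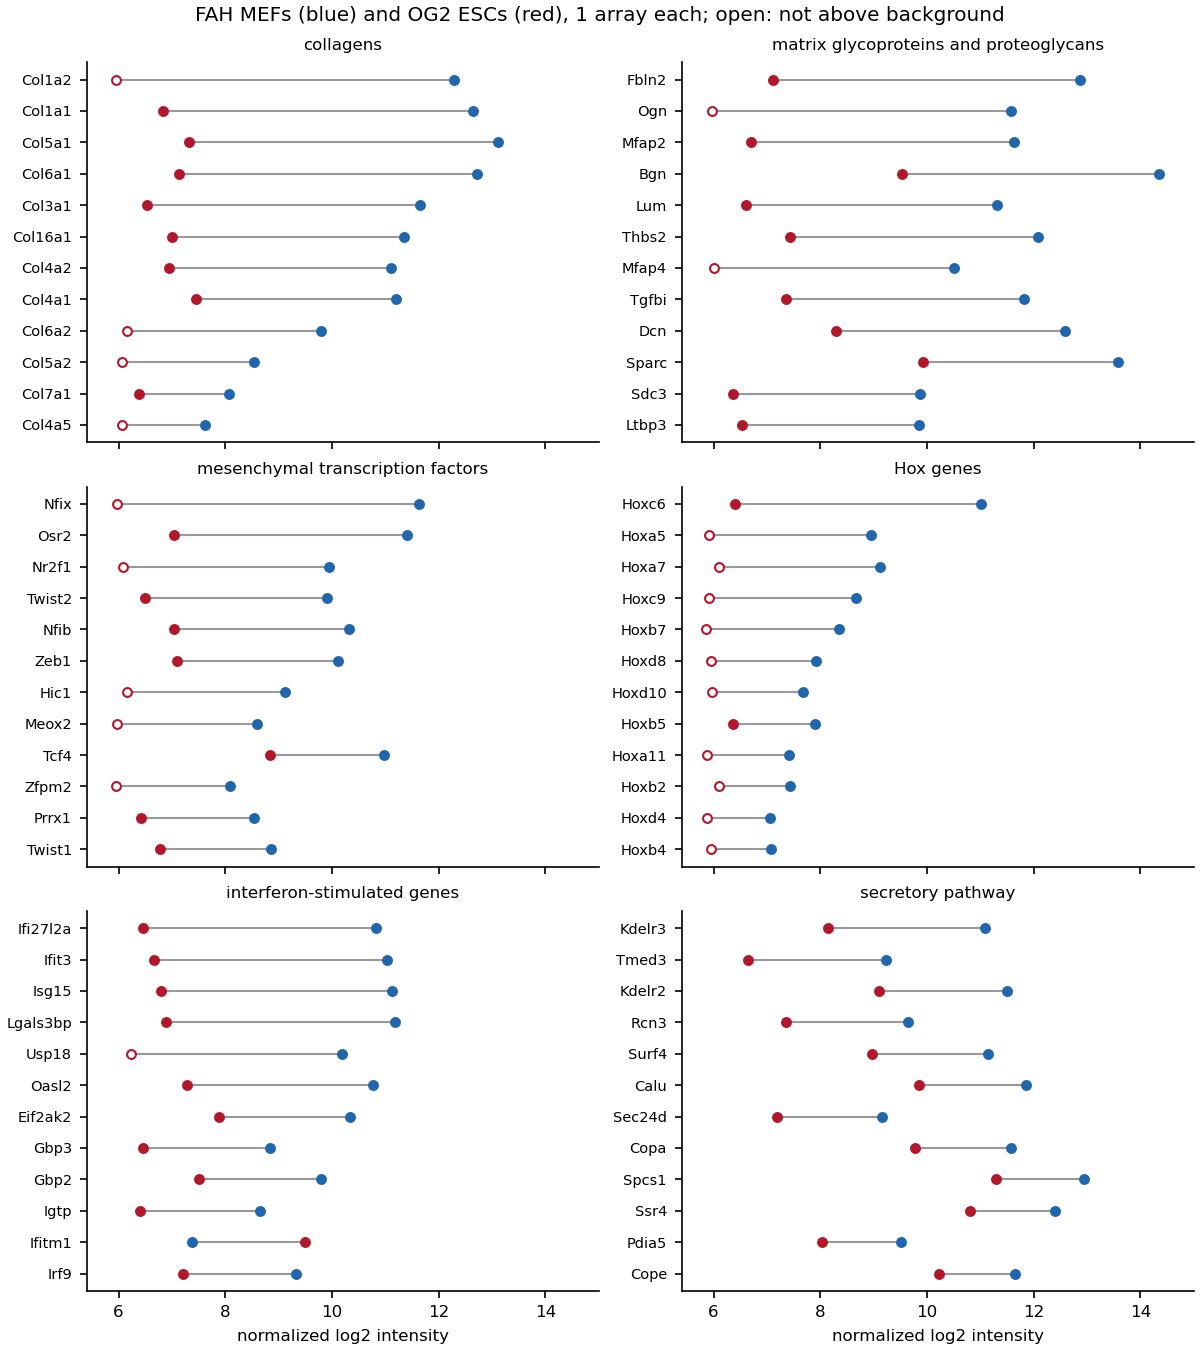
Normalized log2 intensity (x axis) in FAH MEFs (blue) and OG2 ESCs (red), 1 array each, for the up to 12 members with the largest differences in 6 lists, with open circles for values not above background. Col1a1 stands at 12.65 and 6.83, Hoxc6 at 11.02 and 6.40 and Isg15 at 11.13 and 6.79.

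Lists of matrix remodelling, contraction and caveolae had no member at least 2-fold higher in ES cells. Of 27 matrix proteases and inhibitors, 16 were lower and none higher, including the membrane-bound collagenase Mmp14 (12.68 and 7.75), the gelatinase Mmp2 (12.47 and 7.71), the inhibitors Timp2 and Timp3 (lower by 4.20 and 4.15) and Serpinf1 (13.53 and 9.02). Of 38 contractile and cytoskeletal genes, 21 were lower and none higher. Acta2, the smooth muscle actin of contractile fibroblasts, was 14.34 and 9.41, 30.4-fold lower, and Actg2 10.69 and 6.59. Tpm2, a tropomyosin, and Zyx, of focal adhesions, were lower by 3.45 and 2.83, and the calcium-binding S100a4, Anxa1 and Anxa2 by 3.62 to 4.17. Of 17 genes of caveolae and the cell surface, 11 were lower. Cav1, the coat protein of caveolae, was 12.52 and 7.04, 44.7-fold lower, Cavin3 11.75 and 6.75, and Cavin2 10.88 and not above background, and the surface antigen Thy1, by which fibroblasts are often sorted, was 13.45 and 9.04. Of 11 integrins 4 were lower, led by the collagen receptor chain Itga11, at 9.81 in MEFs and not above background in ES cells.

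Genes of contraction are controlled in muscle and fibroblasts by serum response factor, which binds the CArG box. This box, searched on both strands in the 250 bases before the start, was found in 7 of 34 contractile genes with a promoter (20.6%), against 1.41% of the compared genes with a promoter and 1.62% of all. Of the 7, Cnn2, Fhl2, Myl6 and Vcl were at least 2-fold lower in ES cells, while Acta1 (-0.97), Fhl1 (-0.66) and Actc1 (0.70) lay within 2-fold; they are named for the match. Srf itself was higher in ES cells (8.91 and 10.54). The example shown is Cnn2, a calponin that binds actin (lower by 1.53), chosen for this match after its values were seen. The bases from 80 to 21 before its start lie on the plus strand at chr10:79988520-79988579, with the box in capitals 56 to 47 bases before the start.
Cnn2: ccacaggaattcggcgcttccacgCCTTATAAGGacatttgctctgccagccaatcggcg

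Transcription factors of mesenchyme and of body position distinguished the MEFs. Of 38 mesenchymal factors, 23 were lower in ES cells and 1, Klf9, was higher, near the 2-fold limit. Nfix, of the nuclear factor I family, was 11.62 in MEFs and at least 38.5-fold lower, and its relative Nfib was 10.32 and 7.04. Osr2 (11.40 and 7.04), Twist2 (9.90 and 6.50), the repressor of E-cadherin Zeb1 (10.10 and 7.10), Nr2f1 (at least 12.1-fold lower) and Hic1 (at least 6.8-fold) were of the same kind. Of 25 Hox genes compared, 12 were lower and none higher, and 6 of the 38 on the array were above background in ES cells against 24 in MEFs. The 12 came from all 4 clusters, with 3 of 8 compared in Hoxa, 4 of 6 in Hoxb, 2 of 5 in Hoxc and 3 of 6 in Hoxd. Hoxc6 was 11.02 and 6.40, and Hoxa7, Hoxa5, Hoxc9 and Hoxb7 were at least 6.8-, 6.0-, 5.0- and 4.0-fold lower.

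Lists of TGF-beta and BMP signals and of FGF, PDGF and receptor tyrosine kinases had 34.4% and 26.7% of members lower, against 15.2% of all genes. Their higher shares, 6.25% and 13.3%, did not exceed the 14.6% of all genes. Of 32 genes of TGF-beta and BMP signals, 11 were lower and 2 higher. The receptor Tgfbr2 was 12.30 and 6.62, 51.4-fold lower, its coreceptor Tgfbr3 9.84 and 6.74, and the ligand Tgfb3 at least 6.3-fold lower, whereas the activin receptor Acvr2b was 6.84 and 10.28, the largest of the higher ones. Of 30 genes of FGF, PDGF and receptor tyrosine kinases, 8 were lower and 4 higher. Pdgfra (11.11 and 6.42), Axl (12.08 and 7.18), Egfr (at least 7.2-fold lower) and the ligand Fgf7 (at least 13.4-fold) marked the MEFs. The 4 that were higher were Etv5 (6.69 and 9.03) and Etv4 (6.94 and 9.16), which are targets of FGF and ERK signals, the receptor Epha2 (6.43 and 8.59) and Spry4, a feedback inhibitor (6.52 and 7.89).

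The IGF axis was mostly lower, with 8 of 14 lower and 2 higher. The binding proteins Igfbp5 (11.96 and 6.65), Igfbp7 (13.24 and 9.22) and Igfbp4 (11.83 and 8.02) led it, together with Igf2, and the mRNA-binding Igf2bp1 was higher (8.24 and 11.10). Of 29 Wnt genes, 11 were lower (37.9%) and 3 higher (10.3%), against 15.2% and 14.6% of all genes. The secreted Dkk3 and the antagonists Sfrp1 and Sfrp2 were lower by 3.90, 2.34 and 2.38 and the agonist Rspo2 at least 6.3-fold, while the higher ones were the receptor Fzd7 (8.12 and 9.57), its relative Fzd10 and the ligand Wnt7b. The pathway by which leukaemia inhibitory factor keeps mouse ES cells undifferentiated had more members lower than higher. Of 12 genes, 6 were lower and 5 within 2-fold, the lower ones including the shared receptor Il6st (9.08 and 7.61), Stat3 (9.68 and 8.23), Jak1 (7.98 and 6.53) and Osmr (9.49 and 6.49), and 1 was higher, the kinase Pim3 (8.51 and 11.34). Of 19 immediate early genes, 5 were higher and 1 lower, and Fos stood at 7.69 and 9.31 and Dusp1 at 8.80 and 10.87.

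Among genes of innate immunity, more were lower than higher in ES cells. Of 29 interferon-stimulated genes compared, 14 were lower, 2 higher and 13 within 2-fold. MEFs had 29 of the 34 on the array above background, against 20 in ES cells. Ifit3 was 11.02 in MEFs and 6.66 in ES cells, Isg15, a ubiquitin-like protein, 11.13 and 6.79, Ifi27l2a 10.82 and 6.46, and Oasl2 10.76 and 7.28. Usp18, which removes Isg15 from its targets, was at least 14.3-fold lower. The members against this direction were Ifitm1 (7.38 and 9.50), a membrane protein of germ cells and ES cells as well, and Irgm1 (12.74 and 13.83), whose probes disagree. The light chain of MHC class I, B2m, was 13.79 and 9.34, and 6 of 13 genes of class I and antigen presentation were lower.

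Promoters of interferon-stimulated genes carry the element to which STAT and IRF factors bind. Its core, GAAANNGAAA, searched on both strands, was found in 10 of 22 such genes with a promoter (45.5%), against 3.13% of the compared genes with a promoter and 3.46% of all. Of these 10, the genes Isg15, Ifit3, Gbp2, Gbp3 and Igtp were at least 2-fold lower in ES cells, Irgm1 was higher, and Stat2, Rsad2, Bst2 and Ifitm2 lay between -0.38 and -0.95; they are named for the match. The windows of Isg15 and Ifit3, which differ most, are shown with the core in capitals, in Ifit3 as its reverse complement. That of Isg15 runs from 100 to 41 bases before the start on the minus strand at chr4:156200859-156200918, with 3 overlapping cores, and that of Ifit3 from 165 to 106 bases before the start on the plus strand at chr19:34583364-34583423, with 2 cores.
Isg15: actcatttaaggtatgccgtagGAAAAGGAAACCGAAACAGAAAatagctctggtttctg
Ifit3: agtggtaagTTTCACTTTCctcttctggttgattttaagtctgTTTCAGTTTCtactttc

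Chemokines and other inflammatory genes had lower members only. Of 31 compared, 15 were lower, none higher and 16 within 2-fold. MEFs had 31 of the 39 on the array above background, against 16 in ES cells. Cxcl12, which draws blood stem cells to stroma, was 12.76 and 7.76, and the neutrophil chemokines Cxcl5 and Cxcl1 were at least 17.0-fold and 2.69 units lower. The monocyte chemokine Ccl7 was 11.54 and 8.23, the adhesion receptor Vcam1 10.79 and 6.64, and the pentraxin Ptx3 at least 22.5-fold lower. Blood and macrophage markers moved the same way, as given above.

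In the lists of secretion and of the lysosome, more than 50% of the members were lower in ES cells. Of 36 genes of the secretory pathway, 19 were lower and none higher, with a median of -1.06. They included the KDEL receptors Kdelr3 (11.09 and 8.14) and Kdelr2 (11.51 and 9.10), the cargo receptors Tmed3 and Surf4 (lower by 2.59 and 2.19), the coat subunits Sec24d and Copa (lower by 1.98 and 1.79), and the calcium-binding Calu and Rcn3. Of 39 lysosomal and autophagy genes, 21 were lower and 2 higher. Ctsk, a protease that degrades collagen, was 10.73 and 6.73, and Lamp2 (12.89 and 10.25), Gabarap (12.64 and 9.88), Laptm4a and the tetraspanin Cd63 (13.82 and 11.31) were lower by 2.51 to 2.76. The 2 against this direction were Manba, a mannosidase (8.32 and 11.58), and Laptm5 (8.56 and 11.62), a lysosomal protein best known from blood cells. Of 27 apoptosis regulators, 6 were lower (22.2%) and 4 higher (14.8%), against 15.2% and 14.6% of all genes. The higher share was thus near that of all genes. The death receptor Fas and its caspase Casp8 were at least 8.0- and 4.9-fold lower, and the survival factor Mcl1 (9.90 and 11.99) and the killer Pmaip1 (6.40 and 8.13) were both higher. Of 11 genes of the microRNA pathway, 4 were higher and none lower, led by Lin28a, which blocks the maturation of let-7, at least 14.7-fold higher, and Drosha (8.86 and 10.87).

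Families formed from gene symbols alone, without choosing members by hand, gave a similar picture. There were 156 such families with at least 8 compared genes, and they held 3019 genes. The highest shares of genes higher in ES cells were those of Mcm (7 of 8), Nup (11 of 14), the RNA exosome Exosc (6 of 8), the splicing proteins Srsf (6 of 8), the chaperonin Cct (5 of 8) and the RNA polymerase subunits Polr (10 of 18), with none lower in these, and of the tRNA methyltransferases Trmt (5 of 9, with 2 lower). The Klf and Kdm families, of transcription factors and histone demethylases, had 5 of 10 and 5 of 11 higher and none lower. The highest shares of lower genes were those of the annexins Anxa (6 of 8, with 1 higher), the collagens and collagen-like genes Col (12 of 25, with 1 higher), the chemokines Ccl and the ciliary transport proteins Ift (5 of 11 each, none higher), and the sulfotransferases Chst (4 of 9). A shared symbol does not always mean a shared function.

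Several of the largest differences lay outside the function lists. On the ES cell side, Wfdc2, a secreted protein of epithelia, was 6.61 and 12.48, Bex4 6.47 and 12.12, the mitochondrial protein Chchd10 9.03 and 13.93, Gstp2 6.52 and 11.24, the RNase P subunit Rpp25 6.71 and 11.13, and Fuom, a fucose mutarotase, 7.26 and 11.25. Upp1, which splits uridine, was at least 52.5-fold higher, Grb7, an adaptor of receptor kinases, at least 23.5-fold, and Rbmxl2, an RNA-binding protein known from the testis, at least 21.8-fold. On the fibroblast side, Ptn, which encodes the growth factor pleiotrophin, was 13.83 in MEFs and at least 178-fold lower in ES cells, the largest difference in that direction. The calcification inhibitor Mgp was 12.73 and 7.18, the stromal antigen Cd248 11.94 and 6.86, and Emp3 11.60 and 6.70. Cyp1b1, a cytochrome of oestrogen and retinoid metabolism, and Ccdc80, a secreted matrix protein, were at least 30.2- and 23.4-fold lower, and Scara3, Olfml3, Mrgprf, Ghr (the growth hormone receptor), Capn6, Zfp521, Clec2d, Rbms3 and Samd9l were at least 14.1- to 20.8-fold lower.

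The promoters of the genes apart differed in their CpG content. The ratio of observed to expected CpG in the 250 bases before the start had a median of 0.761 in 1157 genes higher in ES cells, 0.651 in 1154 lower genes and 0.704 in 5505 genes within 2-fold. A ratio below 0.5 was found for 19.3% of the higher and 29.4% of the lower genes, against 26.0% of those within 2-fold. Among the lists, DNA replication and mitosis had medians of 0.836 and 0.864, and collagens and interferon-stimulated genes 0.521 and 0.275. Genes with and without several starts were treated alike, with the mean over starts.

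By chromosome, and leaving aside Y with 5 genes compared, the share of genes lower in ES cells was highest on chromosome 3, at 22.2% of 469 compared, and on the X chromosome, at 19.6% of 316, where 12.0% were higher. The lowest shares of lower genes were those of chromosomes 17 and 12, at 10.6% and 10.7%. The median differences of these last and of chromosome 3 and X were 0.08, 0.06, -0.11 and -0.12. The cultures may differ in sex, and its part in the share of the X chromosome was not tested.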

How the data were processed

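Total RNA of 6 cultures, 1 of MEFs, 1 of OG2 ES cells and 4 of iPS cell lines, was linearly amplified and hybridized on Illumina mouse-8 V2 BeadChips. The deposited signal intensity of each probe was exported by the authors from BeadStudio with no background subtracted; a second deposited table, in which the authors had subtracted background from these intensity values and normalized them by cubic spline, served as an alternative and to locate background. The sources used here do not give the version of BeadStudio. Starting from the exported signals, normexp correction (offset 50) was followed by quantile normalization of the 6 arrays and a log2 transform, in limma 3.58.1 under R 4.3.3, with all else in Python 3.11.15.

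The background of an array was the exported signal at which the authors' value crosses 0, its noise SD came from the probes beneath, and a probe counted as above background when it exceeded this level by 2.326 noise SDs. Probes were named through the platform's gene IDs and a RefSeq table of GRCm38.p6: of 25697 probes, 23978 name 1 gene, 1719 none, and 23962 were matched. Of the 16593 genes, 4777 have several probes, of which the one brightest on average over the MEF and ES cell arrays stands for the gene. Where a gene was above background on 1 array only, the dim side was set to that array's lowest signal among probes above background (log2 of 6.30 in the MEFs, 6.35 in the ES cells), and the fold is given as a lower bound, at least N-fold. With 1 array a group there is no test. The steps were tested on simulated data.

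The gene lists, and the parts described, were chosen with earlier results of these data known. One list entry, given under an old name, resolved to Sall4, which therefore stands in both pluripotency lists, and 1 name was not matched. Named are 6 genes of the study (Pou5f1, Nanog, Sox2, Klf4, Myc and Fah), the 20 largest differences in each direction among genes above background on both arrays, the 20 genes with the highest signal in each direction among those above background on 1 array, up to 8 members a list by size, members 2-fold apart against their list, and symbol families; any other gene is said to be chosen after its values were seen. Promoter sequences are RefSeq's, 250 bases before each start of transcription.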

Additional observations from a re-analysis of the deposited data

How the results depend on the processing

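Each group has 1 array, so no replicate could be left out. No paired analysis was possible because each group holds a single array. The count of genes at least 2-fold higher in ES cells was 1407 and that of genes at least 2-fold lower in ES cells 1467. Scaling each array to its median gave 867 and 2111, moved the median difference of all genes compared from 0.02 to -0.21 on the log2 scale and left 29.1% of the genes apart on the higher side instead of 49.0%. The authors' values raised to the background limit gave 2239 and 2221, and a 3-fold limit gave 614 and 773. Under quantile normalization of the 2 arrays alone, no background correction, an offset of 16, the authors' values plus 50, the mean of all probes, the probe with the highest signal over 6 arrays, and stricter or no filters on dim probes, the counts ran from 1166 to 1854 and from 1119 to 1902. No gene at least 2-fold apart here was at least 2-fold apart the other way under any of these settings. The correlation between ES cells and MEFs was 0.819 on exported signals, 0.843 on normalized log2 values and 0.821 on the authors' values. Of 128 list counts (higher and lower in each of 64 lists), 32 moved by more than 1.5 times, or to or from 0, under median scaling, 36 with the floored values of the authors, 51 at 3-fold, 26 with genes above background on both arrays, 21 with an offset of 16, and 1 to 11 under the others that moved any. The side with more members apart changed under median scaling in oxidative phosphorylation (from 5 higher and 0 lower to 2 and 4) and the proteasome (from 4 and 0 to 1 and 3), and in 2 marker lists of 8 and 7 genes under other settings. Of 517 named genes, Irgm1 was the only 1 to reverse, with a difference of -0.24 as the mean of its probes; the cause was not tested. Precision is limited by the number of arrays and, for dim genes, by the background.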
